A study of Canis lupus familiaris with 12 samples.

Results

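Genes by which blood monocytes are recognised and by which they sense microbes and antibodies were measured in canine peripheral blood mononuclear cells (PBMCs), the lymphocytes and monocytes left after density gradient separation of blood. The set was chosen by symbol: CD14, LYZ, FCGR1A, CSF1R, AIF1, CD68, FCER1G, TLR2 and TLR4. Of these 9 symbols, 8 matched a row among the 29822 genes of each expression table. No row matched the symbol CD14, and that gene was not analysed here. All 8 measured genes passed the filter on low counts, so the values below describe these 8 and not all 9.

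Blood was drawn from healthy male beagle donors housed free of specific pathogens. The study asked how 5-aminolevulinic acid (ALA), which cells convert to heme, alters the response of these cells to concanavalin A (ConA), a jack bean lectin and T cell mitogen. There were 4 groups of 3 libraries, each of cells cultured for 24 h. The first received ConA at 0.5 µg/ml together with ALA at 1.0 mM, the second ConA alone at 0.5 µg/ml, the third ALA alone at 1.0 mM, and the fourth neither agent. All groups share the culture itself, so untreated cells are not freshly drawn monocytes. Sample titles number the libraries 1 to 3 within each group but do not say whether a number is an animal. The p-values therefore reflect only how far the libraries of a group lie apart. In fits that take the number as a replicate block, they reflect only the spread left after differences between numbers are removed. Either may be a technical spread. PBMCs are a mixture, and the level of a gene is its share of all reads. In bulk RNA fewer monocytes, less RNA per monocyte and more RNA from other cells cannot be told apart.

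Monocytes develop under colony-stimulating factor 1, which acts through the receptor tyrosine kinase CSF1R. They carry lysozyme (LYZ) in their granules, the actin-binding protein AIF1 in their cytoplasm and the glycoprotein CD68 in their lysosomes. FCGR1A is the high-affinity receptor for IgG, is inducible by interferon gamma in human and mouse, and signals through the common gamma chain FCER1G, which other Fc receptors of myeloid cells, NK cells and mast cells also use. TLR2 recognises bacterial lipoproteins and TLR4, together with its partner LY96 (MD-2), recognises lipopolysaccharide. Monocytes placed in culture commonly adhere and differentiate towards macrophages.

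On the CanFam3.1 build, the genes lay on 8 different chromosomes. CSF1R spans chr4:58980788-59010510 on the plus strand in 22 exons, LYZ chr10:11346435-11351040 on the plus strand, AIF1 chr12:1104394-1106177 on the plus strand and CD68 chr5:32501380-32503183 on the plus strand. FCGR1A spans chr17:59092933-59102015 on the plus strand and FCER1G chr38:21268001-21270940 on the minus strand. TLR2 spans chr15:51454695-51465241 and TLR4 chr11:71356390-71367165, both on the plus strand. Over all genes, 93.6 to 95.0% of the exon reads of a library were deposited as unique. FCGR1A is overlapped on the opposite strand by HIST2H2BF, which held 12 to 105 exon reads a library, while FCGR1A held 100 to 1895 exon reads a library.

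The libraries held 13390692 to 21517099 exon reads. The mitochondrial share of exon reads was 3.59 to 4.82% in the 4 libraries numbered 1 and 11.85 to 23.35% in the 8 others, so libraries numbered 1 stood apart in every group. The share of exon reads that cross an exon junction was 52.4 to 54.2% in libraries numbered 1 and 36.1 to 43.4% in the others. Within each group the library numbered 1 also had the lowest intron share of gene reads. Libraries of one number and different treatments deviated together from their group means (18 pairs, correlations 0.376 to 0.748), and a fit that takes the number as a replicate block is given wherever it changes a call. Markers of T cells, B cells, NK cells, neutrophils, dendritic cells, platelets and red cells were also present, and no measured marker was at 0 in all 12 libraries. The summed level of the 8 monocyte genes was 162 to 284 normalised CPM (exon reads scaled to library size) in the ConA+ALA libraries, 172 to 269 CPM in the ConA libraries, 300.2 to 884 CPM in the ALA libraries and 479 to 611 CPM in the untreated libraries.

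Compared per length, in the deposited length-scaled values (TPM), FCER1G was the most abundant of the 8 genes in 11 of 12 libraries, at 238 to 973 TPM. LYZ led in the other one, untreated library 1, at 496 TPM, and was the member with the widest span, down to 3.39 TPM in ConA+ALA library 3. TLR2 ranked 7 or 8 of 8 in every library. In untreated cells the mean levels were 556 ± 90.7 TPM for FCER1G, 236 ± 227 TPM for LYZ, 122 ± 37.5 TPM for AIF1, 67.3 ± 56.8 TPM for CSF1R, 52.6 ± 9.65 TPM for FCGR1A, 32.3 ± 16.4 TPM for CD68, 21.0 ± 6.68 TPM for TLR4 and 20.8 ± 12.3 TPM for TLR2 (SD, n = 3). By mean ± SD the ranges of FCER1G and LYZ just failed to meet, although LYZ was the higher in library 1, and no other neighbours in this order were apart. The exon length behind these values differs, being 261 bases for FCER1G and 3602 bases for CSF1R, so the TPM of FCER1G rests on few bases.

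**Figure D1:**
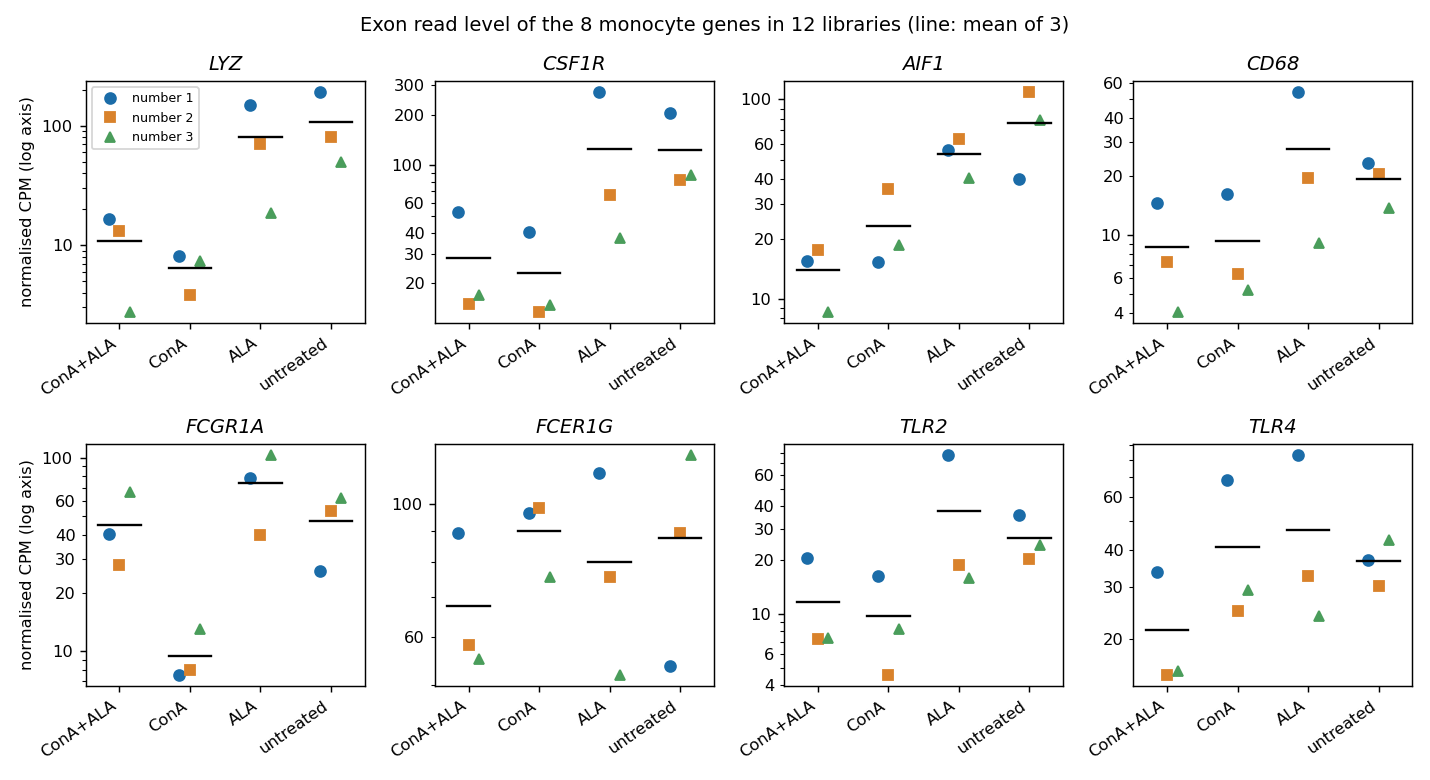
Normalised CPM on a log axis for each of the 8 monocyte genes in the ConA+ALA, ConA, ALA and untreated groups; each point is a library, its shape and colour give the title number, and the line is the mean of 3. LYZ lay at 3.80 to 8.08 CPM with ConA against 49.4 to 192 CPM untreated, while the FCER1G groups overlapped.

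ConA against untreated cells asked how monocyte transcripts differed in PBMCs cultured with ConA. Expression of LYZ, FCGR1A and AIF1 fell, with log2 fold changes of −4.06, −2.31 and −1.71. With the replicate block CSF1R, TLR2 and CD68 fell too, while neither model called the gamma chain FCER1G or the lipopolysaccharide receptor TLR4. Thus 3 of 8 genes fell in edgeR's quasi-likelihood test without the block, where 8.57% of the 13358 genes tested fell, and 6 of 8 fell with it, where 21.2% of genes fell. DESeq2 called 4 of 8, these 3 and CSF1R, all lower, where it called 24.9% of genes in either direction. In 5 of 8 genes all 3 ConA libraries lay below all 3 untreated libraries, which was so for 18.0% of all genes, and 6 of 8 were lower within every number (34.3% of all genes).

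LYZ, the antibacterial muramidase, had 8.08, 3.80 and 7.39 CPM in ConA libraries 1 to 3, against 192, 81.1 and 49.4 CPM in untreated libraries 1 to 3. All ConA libraries were low and the groups did not overlap. The change was −4.06 ± 0.86 (log2 ± SE), 16.6-fold lower in ConA cells, with an adjusted p of 0.0087 in edgeR. The ConA values rest on 48 to 210 exon reads a library, and the untreated values on 849 to 4275.

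CSF1R, the receptor on which monocyte survival depends, had 40.4, 13.5 and 14.8 CPM in ConA libraries, against 203, 81.3 and 87.3 CPM in untreated libraries. Library 1 was the highest in both groups, yet every ConA library lay below every untreated one. The change was −2.43 ± 0.80, with an adjusted p of 0.057 in edgeR, and −2.51 ± 0.26 with the replicate block (adjusted p = 2.2e-05). Within numbers 1 to 3 it was −2.33, −2.59 and −2.56, the most even of the 8 genes.

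AIF1 had 15.4, 35.7 and 18.7 CPM in ConA libraries, against 39.8, 109 and 78.9 CPM in untreated libraries. The groups did not overlap, though ConA library 2 came close to untreated library 1. Expression fell by 1.71 ± 0.42 (adjusted p = 0.015 in edgeR). The call was lost without ConA library 1, ConA library 3 or untreated library 2, where the highest adjusted p was 0.064 in edgeR.

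CD68 had 16.3, 6.34 and 5.26 CPM in ConA libraries, against 23.4, 20.7 and 13.8 CPM in untreated libraries. Here the groups overlapped, because ConA library 1 exceeded untreated library 3, although ConA was lower within each number. The change was −1.04 ± 0.64 (adjusted p = 0.29 in edgeR), and −1.24 ± 0.28 with the block (adjusted p = 0.0022).

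FCGR1A had 7.54, 7.92 and 12.9 CPM in ConA libraries, against 25.9, 52.9 and 61.8 CPM in untreated libraries. All ConA libraries were low and the groups did not overlap. Expression fell by 2.31 ± 0.45, or 4.96-fold (adjusted p = 0.0046 in edgeR). With each of the 12 libraries left out in turn, FCGR1A and LYZ passed in 12 of 12 fits, with highest adjusted p-values of 0.023 and 0.043 in edgeR. With the 4 libraries numbered 2 left out together, none of the 8 genes passed in edgeR (FCGR1A adjusted p = 0.091, LYZ 0.157), and 55 genes passed in all; with the block, 5 of 8 still passed without them.

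FCER1G, the signalling partner of FCGR1A, had 96.7, 98.4 and 75.6 CPM in ConA libraries, against 53.6, 89.3 and 121 CPM in untreated libraries. The groups overlapped, with ConA higher in numbers 1 and 2 and lower in number 3. The change was 0.04 ± 0.33 (adjusted p = 0.96 in edgeR). FCER1G TPM was 71.5, 69.3 and 32.6 times FCGR1A TPM in ConA libraries, against 11.6, 9.43 and 10.9 times in untreated libraries. This ratio was chosen after the values were seen and has no test.

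TLR2 had 16.4, 4.60 and 8.24 CPM in ConA libraries, against 35.7, 20.4 and 24.2 CPM in untreated libraries, and the groups did not overlap. The change was −1.45 ± 0.66 (adjusted p = 0.15 in edgeR), and −1.62 ± 0.28 with the block (adjusted p = 0.00037). TLR4 had 68.4, 25.0 and 29.4 CPM in ConA libraries, against 37.1, 30.3 and 43.0 CPM in untreated libraries. ConA was higher in number 1 and lower in numbers 2 and 3, and the change was 0.16 ± 0.50 (adjusted p = 0.87 in edgeR). As a ratio of TPM, again chosen after the values were seen, TLR4 was 3.25, 4.23 and 2.78 times TLR2 in ConA libraries, against 0.807, 1.16 and 1.38 times in untreated libraries. LY96, the partner of TLR4, changed by −0.08 ± 0.43 (adjusted p = 0.93 in edgeR) and was picked for its role.

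**Figure D2:**
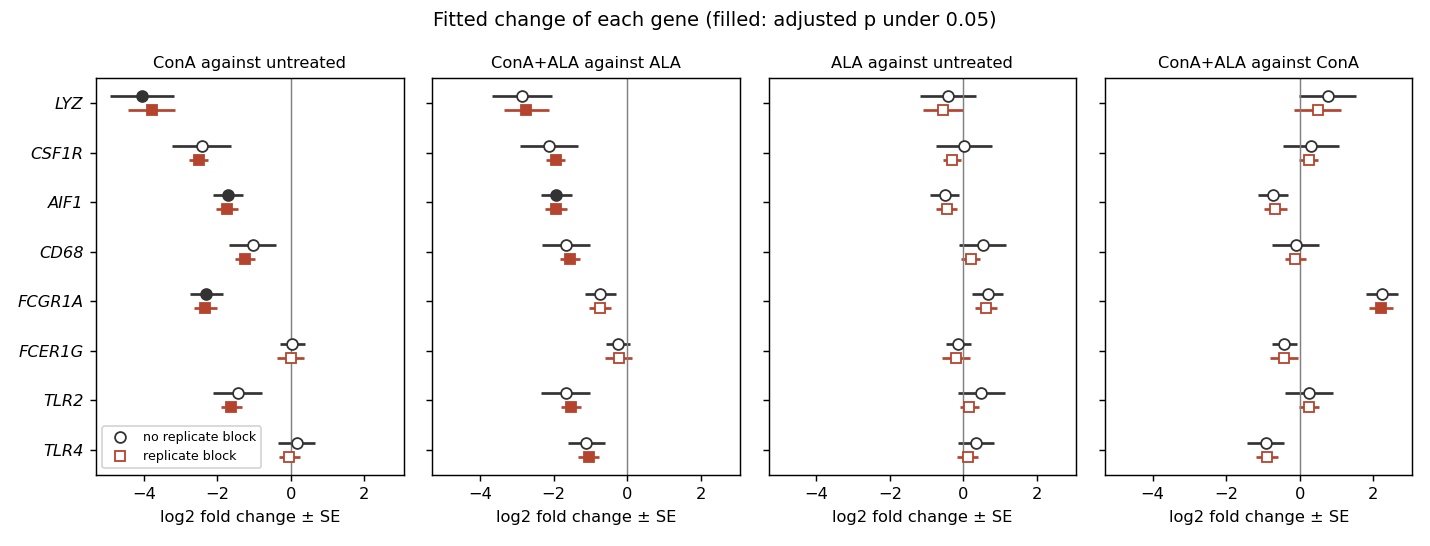
Fitted log2 fold changes with SE bars for the 8 genes in each comparison, without and with the replicate block; circles are without the block and squares with it, filled markers have an adjusted p under 0.05, and 0 is no change. The bars are shorter with the block for CSF1R, CD68 and TLR2, which pass the threshold for ConA against untreated only there.

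Markers of other cell types were set beside these values, where 9.93% of all genes rose and 8.57% fell (21.3% and 21.2% with the block). Among neutrophil markers, S100A8 had 43.6, 38.8 and 37.5 CPM in ConA libraries, against 172, 109 and 101 CPM in untreated libraries. It fell by 1.67 ± 0.25 (adjusted p = 0.0011 in edgeR), and monocytes also express it. S100A12 and CSF3R fell as well, by 3.40 ± 0.91 and by 2.58 ± 0.49 (adjusted p = 0.025 and 0.0042 in edgeR). Of the NK cell markers 1 of 4 fell, KLRD1 (sum of the 4, 26.3 to 35.8 CPM with ConA against 46.5 to 92.9 CPM untreated). Of the B cell markers 2 of 7 fell, BLK and CD79B (sum of the 7, 1420 to 2454 CPM with ConA against 1550 to 2629 CPM untreated). T cell markers summed to 618 to 1096 CPM with ConA against 862 to 1466 CPM untreated, with 1 of 9 higher, the costimulatory receptor CD28, and 1 lower, CD5. The summed levels of B cell and T cell markers overlapped between the groups. CD79A alone had 1289, 2074 and 1774 CPM of the B cell sum with ConA. With the block 5 of 6 neutrophil, 3 of 4 NK cell, 5 of 7 B cell and 6 of 9 T cell markers fell, and 1 T cell marker rose. The median change without the block was −2.55 for neutrophil and −0.69 for NK cell markers, all below 0. It was −1.13 for B cell markers (6 of 7 below 0) and −0.63 for T cell markers (8 of 9 below 0). The median of all genes was −0.05. Dendritic cell markers summed to 327 to 504 CPM with ConA against 151 to 217 CPM untreated. That sum includes BATF3, which had 114.6, 356.2 and 263.5 CPM with ConA against 5.71, 18.5 and 28.8 CPM untreated. Of the 5 tested 1 fell, CD1C, and 1 rose, BATF3 (3.80 ± 0.60, adjusted p = 0.0015 in edgeR), which activated T cells also express. The median change of the 5 was 0.06, and with the block 2 fell and 1 rose. The part of these markers in the monocyte values was not tested.

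ConA+ALA against ALA repeats the ConA comparison in the presence of ALA, with libraries that the first comparison did not use but that carry the same numbers. Of the 8 genes AIF1 fell in edgeR without the block, by 1.93 on the log2 scale, where 3.03% of all genes fell. With the block 6 of 8 fell, namely AIF1, LYZ, CSF1R, CD68, TLR2 and TLR4, where 14.3% of all genes fell. DESeq2 called AIF1, LYZ and CSF1R lower, along with 6.06% of all genes. In 2 of 8 genes, LYZ and AIF1, all 3 ConA+ALA libraries lay below all 3 ALA libraries (13.3% of all genes), and 7 of 8 were lower within every number (32.2% of all genes).

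LYZ had 16.6, 13.2 and 2.76 CPM in ConA+ALA libraries, against 151, 71.1 and 18.5 CPM in ALA libraries. Library 3 was the lowest in both groups and the groups did not overlap. The change was −2.87 ± 0.82 (adjusted p = 0.054 in edgeR, 0.014 with the block).

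CSF1R had 53.0, 15.0 and 17.1 CPM in ConA+ALA libraries, against 272, 66.3 and 37.1 CPM in ALA libraries. Number 1 was high in both groups, so that ConA+ALA library 1 exceeded ALA library 3. The change was −2.14 ± 0.79 (adjusted p = 0.13 in edgeR, 0.00023 with the block).

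AIF1 had 15.6, 17.6 and 8.63 CPM in ConA+ALA libraries, against 55.5, 63.7 and 40.2 CPM in ALA libraries. The groups did not overlap, and expression fell by 1.93 ± 0.42 (adjusted p = 0.017 in edgeR). It was lost without ConA+ALA library 1 or 3 or ALA library 1 or 2, with a highest adjusted p of 0.066 in edgeR.

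CD68, at 14.7, 7.25 and 4.04 CPM in ConA+ALA libraries against 54.1, 19.7 and 9.15 CPM in ALA libraries, overlapped between groups. Its change was −1.67 ± 0.65 (adjusted p = 0.15 in edgeR, 0.0007 with the block). TLR2, at 20.5, 7.25 and 7.35 CPM in ConA+ALA libraries against 77.8, 18.9 and 16 CPM in ALA libraries, also overlapped and changed by −1.67 ± 0.66 (adjusted p = 0.15 in edgeR, 0.0009 with the block).

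TLR4 had 33.6, 15.2 and 15.6 CPM in ConA+ALA libraries, against 83.4, 32.6 and 23.9 CPM in ALA libraries. It was lower within every number and the change was −1.11 ± 0.51 (adjusted p = 0.21 in edgeR, 0.021 with the block). Without ALA it was 0.16 ± 0.50, and the difference between these responses was tested as the interaction of ALA and ConA.

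FCGR1A had 40.2, 28.0 and 66.3 CPM in ConA+ALA libraries, against 78.4, 40.0 and 104 CPM in ALA libraries, and the groups overlapped. The change was −0.72 ± 0.43 (adjusted p = 0.35 in edgeR, 0.085 with the block). FCER1G had 89.5, 58.3 and 55.2 CPM in ConA+ALA libraries, against 113, 75.6 and 52.0 CPM in ALA libraries. Its change was −0.24 ± 0.33 (adjusted p = 0.74 in edgeR), the smallest of the 8. Of the neutrophil markers CSF3R fell (−2.06 ± 0.49, adjusted p = 0.024 in edgeR) and S100A8 changed by −0.59 ± 0.24 (adjusted p = 0.16 in edgeR, 0.0079 with the block); their part in the monocyte values was not tested.

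ALA against untreated cells asked what the heme precursor does without a mitogen. None of the 8 genes passed in edgeR without or with the block or in DESeq2, and none had an unadjusted p under 0.05 in these fits. Over all genes 0% passed in edgeR, with 155 at an unadjusted p under 0.05; the block gave 6 genes (0.0449%) and DESeq2 gave 4 (0.0299%). The largest changes among the 8 were 0.66 ± 0.43 for FCGR1A, 0.52 ± 0.63 for CD68 and −0.51 ± 0.41 for AIF1. LYZ changed by −0.42 ± 0.76, TLR2 by 0.49 ± 0.64, TLR4 by 0.34 ± 0.50, FCER1G by −0.13 ± 0.33 and CSF1R by 0.01 ± 0.76.

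These small mean changes hold 3 unlike within-number differences. In number 1, ALA was above untreated for 7 of 8 genes, with a median of 1.10 on the log2 scale. In number 2, ALA was below untreated for 7 of 8 genes (median −0.21), and in number 3 again for 7 of 8 (median −0.91). Over all genes tested the medians were −0.03, 0.00 and 0.00.

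FCGR1A was the exception in number 3, where it was 0.74 higher with ALA while CSF1R was 1.24 lower and LYZ 1.42 lower. LYZ was the exception in number 1, at −0.35. None of the 8 was higher in all 3 numbers (14.8% of all genes were), and 1, LYZ, was lower in all 3 (15.9% of all genes). The libraries numbered 1 are those with the low mitochondrial share and the high junction share, and the part of either in this pattern was not tested.

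**Figure D3:**
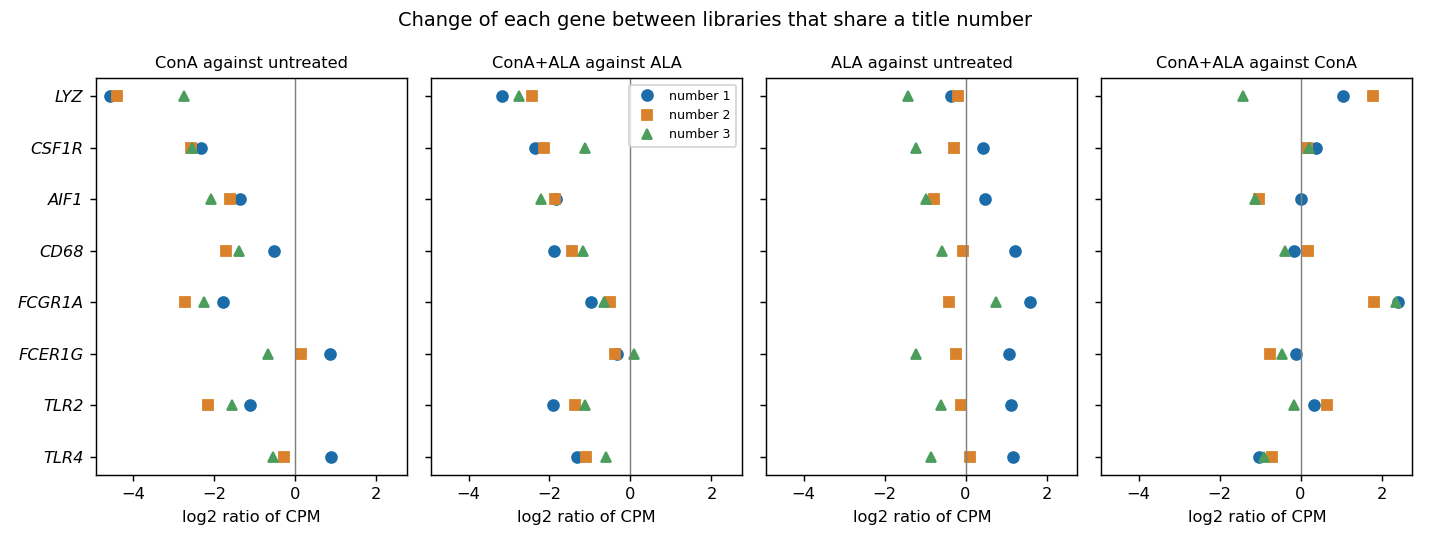
Log2 ratio of normalised CPM within each title number for the 8 genes, 1 panel for each comparison; symbols give the number and 0 is no difference. In the panel of ALA against untreated, 7 of 8 genes are above 0 in number 1 and 7 of 8 are below 0 in number 3, while FCGR1A lies above 0 in all 3 numbers for ConA+ALA against ConA.

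ConA+ALA against ConA, the comparison of the study's purpose, asked what ALA alters in ConA-stimulated cells. It reuses the ConA libraries of the first comparison, and the interaction reuses all 12. FCGR1A was the one gene of the 8 called in any of the models run on all 3 numbers: it rose with the replicate block and in DESeq2 but did not pass in edgeR without the block. The other 7 genes did not pass in these fits. Without the block 0% of all genes passed in edgeR, with 445 at an unadjusted p under 0.05.

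FCGR1A had 40.2, 28.0 and 66.3 CPM in ConA+ALA libraries, against 7.54, 7.92 and 12.9 CPM in ConA libraries. All ConA+ALA libraries lay above all ConA libraries, which was so for 1 of 8 genes here and for 4.04% of all genes. The change was 2.24 ± 0.45, or 4.74-fold (adjusted p = 0.27 in edgeR). With the block it was 2.22 ± 0.32 (adjusted p = 0.017 in edgeR), where 0.337% of all genes rose, and DESeq2 gave an adjusted p of 0.00092, with 0.180% of all genes higher.

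Within numbers 1 to 3 the FCGR1A difference was 2.41, 1.82 and 2.36. The blocked call held without number 1 (adjusted p = 0.0089 in edgeR) and without number 2 (0.0074), and was lost without number 3 (0.26). Without the block the adjusted p was 0.149 to 0.944 in edgeR as each library was left out, with changes of 1.86 to 2.53. The mean FCGR1A level was 44.8 ± 19.6 CPM with ConA+ALA, 9.46 ± 3.0 CPM with ConA, 74.0 ± 32.0 CPM with ALA and 46.9 ± 18.7 CPM in untreated cells (SD, n = 3). Reads of FCGR1A that cross an exon junction numbered 346, 82 and 152 in ConA+ALA libraries, against 78, 46 and 53 in ConA libraries. These are raw counts, out of 932, 374 and 722 exon reads with ConA+ALA and 196, 100 and 182 with ConA. Junction reads thus rose by a smaller factor than exon reads within each number.

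FCER1G was lower with ConA+ALA within each number, by 0.11, 0.76 and 0.45, and its groups overlapped; its change was −0.41 ± 0.33 (adjusted p = 1 in edgeR, 0.81 with the block). FCER1G TPM was 12.4, 11.6 and 4.64 times FCGR1A TPM in ConA+ALA libraries, against 71.5, 69.3 and 32.6 times in ConA libraries. This ratio, chosen after the values were seen, has no test and includes the FCGR1A difference already given.

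TLR4 was also lower within each number, by 1.02, 0.71 and 0.91, with a change of −0.93 ± 0.51 (adjusted p = 1 in edgeR, 0.30 with the block). CSF1R was higher within each number, by 0.39, 0.15 and 0.20, with a change of 0.31 ± 0.76 (adjusted p = 1 in edgeR). Differences in 1 direction within all 3 numbers, either way, were thus seen in 4 of 8 genes; over all genes, 18.1% were lower and 16.2% higher in all 3 numbers.

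LYZ differed in direction, at 1.04, 1.80 and −1.42 within numbers 1 to 3. Its change was 0.76 ± 0.78 (adjusted p = 1 in edgeR, 0.89 with the block), and without number 3 it was 1.40 with the block (adjusted p = 0.018 in edgeR). AIF1 changed by −0.73 ± 0.41 (adjusted p = 1 in edgeR, 0.53 with the block), and without number 1 by −1.06 with the block (adjusted p = 0.041 in edgeR). CD68 changed by −0.10 ± 0.64 and TLR2 by 0.26 ± 0.65, both with an adjusted p of 1 in edgeR.

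Beside FCGR1A, the neutrophil and monocyte gene S100A8 had 82.3, 66.9 and 73.8 CPM in ConA+ALA libraries, against 43.6, 38.8 and 37.5 CPM in ConA libraries, with no overlap. S100A8 rose with the block (0.90 ± 0.15, adjusted p = 0.012 in edgeR) and did not pass without it (adjusted p = 0.67 in edgeR). All 6 neutrophil markers tested had changes above 0, with a median of 1.05 where the median of all genes was −0.03. The share of all genes above 0 was not counted. CSF3R and MMP8, among the 6, lay near the floor. CSF3R had 0.56, 0.60 and 0.73 CPM in ConA+ALA libraries, against 0.73, 0.63 and 0.28 CPM in ConA libraries, and was lower in numbers 1 and 2. MMP8 had 0.69, 1.3 and 0 CPM, against 0.077, 0.95 and 0 CPM. The gelatinase MMP9, which macrophages also make, had 783, 569 and 2323 CPM in ConA+ALA libraries, against 50.3, 29.9 and 117 CPM in ConA libraries. S100A12 had 9.19, 18.5 and 7.72 CPM in ConA+ALA libraries, against 1.62, 4.60 and 0 CPM in ConA libraries. The groups did not overlap for either gene, and the changes were 4.22 ± 1.41 for MMP9 and 2.53 ± 0.89 for S100A12 (both adjusted p = 1 in edgeR, 0.18 and 0.083 with the block). CXCR2, a neutrophil chemokine receptor, was at 0 in every ConA+ALA and ConA library. The macrophage mannose receptor MRC1 had 330, 191 and 291 CPM in ConA+ALA libraries, against 108, 119 and 74.1 CPM in ConA libraries, again with no overlap (1.43 ± 0.55, adjusted p = 1 in edgeR, 0.60 with the block). Of the 27 other monocyte and macrophage genes tested, 9 had changes below 0 (10 with the block), with a median of 0.42, and none passed. With the block MARCO changed by −1.14 ± 0.27 and MSR1 by 1.25 ± 0.29 (adjusted p = 0.083 and 0.085 in edgeR). NK cell markers summed to 43.7 to 60.8 CPM in ConA+ALA libraries against 26.3 to 35.8 CPM in ConA libraries, and none of 4 passed in either model. The part of these markers in the FCGR1A difference was not tested.

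The interaction of ALA and ConA, the change by ConA in the presence of ALA minus that in its absence, passed for none of the 8 genes in edgeR without or with the block or in DESeq2. Over all genes 0% passed in edgeR, with 222 at an unadjusted p under 0.05, and 0% with the block; DESeq2 gave 4 (0.0299%). FCGR1A had the largest value, 1.58 ± 0.61 (unadjusted p = 0.023, adjusted p = 1 in edgeR), and 1.59 ± 0.43 with the block (adjusted p = 0.46 in edgeR). TLR4 had the lowest, −1.27 ± 0.71 (adjusted p = 1 in edgeR). The effect of ConA on the 8 genes was therefore not shown to differ with ALA.

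Related genes were described through 5 lists of the same pathways. Over all genes, 8.57% fell and 9.93% rose with ConA against untreated (21.2% and 21.3% with the block), and 3.03% fell and 5.09% rose with ConA+ALA against ALA (14.3% and 15.8% with the block). Of 27 other monocyte and macrophage genes tested, 7 fell with ConA against untreated and none rose (15 fell and 1 rose with the block), with a median change of −1.05 where the median of all genes was −0.05. CLEC7A, the beta-glucan receptor Dectin-1, changed by −5.74 ± 0.99, at 0.073 CPM with ConA against 4.4 CPM untreated. The formyl peptide receptor FPR2 changed by −4.82 ± 0.85, at 1.24 CPM against 36.2 CPM. The scavenger receptor CD36 changed by −6.88 ± 1.25, at 0.293 CPM against 38.6 CPM (adjusted p = 0.0024, 0.0031 and 0.0039 in edgeR). With ConA+ALA against ALA, 3 of the 27 fell and 1 rose (15 and 1 with the block), with a median of −1.30. Those that fell were CLEC7A, FPR2 and CD36, at −4.71, −3.65 and −4.77. The one that rose was CLEC5A, a DAP12-coupled lectin receptor (2.11 ± 0.52, adjusted p = 0.029 in edgeR), which was also the 1 gene of this list higher with ConA against untreated with the block (1.64 ± 0.28).

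Among 25 genes of Toll-like receptors and their signalling, 4 fell with ConA against untreated (12 fell and 2, HSP90B1 and TICAM1, rose with the block; median −0.78). They were CD180 (−2.02 ± 0.48), the inhibitory receptor SIGIRR (−1.34 ± 0.19), the shared adaptor MYD88 (−1.24 ± 0.24) and LY86 (−2.92 ± 0.66), which pairs with CD180 (adjusted p = 0.013, 0.0010, 0.0044 and 0.010 in edgeR). With ConA+ALA against ALA, 3 of 25 fell (10 fell and 1, TICAM1, rose with the block), SIGIRR by 0.85, MYD88 by 1.00 and LY86 by 2.27.

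Of 14 Fc receptor genes and proximal kinases, 5 fell with ConA against untreated (10 with the block; median −0.83) and none rose. FCER1A, the alpha chain of the IgE receptor, which shares the gamma chain with FCGR1A, fell by 2.22 ± 0.43, FCRL1 by 2.02 ± 0.38 and the phosphatase INPP5D by 0.95 ± 0.26 (adjusted p = 0.0048, 0.0041 and 0.026 in edgeR). FCGRT, the neonatal Fc receptor, fell by 1.04 ± 0.29. With ConA+ALA against ALA 2 of 14 fell (8 with the block), FCGRT by 1.28 ± 0.29 and LAT2 by 0.90 ± 0.23.

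Of 16 colony-stimulating factor receptors, ligands and myeloid transcription factors, 3 fell with ConA against untreated (6 fell and 2, CSF2RA and RUNX1, rose with the block; median −0.23). CSF3R, the granulocyte colony-stimulating factor receptor, fell by 2.58 ± 0.49, and the transcription factors IRF5 and SPI1 fell by 1.31 ± 0.37 and 1.05 ± 0.33 (adjusted p = 0.0042, 0.029 and 0.044 in edgeR). SPI1 (PU.1), which drives CSF1R transcription in mouse, had 131, 123 and 117 CPM in ConA libraries, against 204, 278 and 287 CPM in untreated libraries. With ConA+ALA against ALA 1 of 16 fell, CSF3R (−2.06 ± 0.49) (4 fell and 1, RUNX1, rose with the block).

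CSF1, the ligand of CSF1R, was the 1 gene of these lists to pass for ConA+ALA against ConA, and only with the block. It had 84.5, 27.1 and 22.1 CPM in ConA+ALA libraries, against 37.2, 7.45 and 13.4 CPM in ConA libraries. The groups overlapped but ConA+ALA was higher within each number, and the change was 1.28 ± 0.23 with the block (adjusted p = 0.021 in edgeR) and 1.20 ± 0.82 without it (adjusted p = 1 in edgeR). Against untreated cells ConA gave −0.99 ± 0.22 for CSF1 with the block (adjusted p = 0.0027 in edgeR) and −0.88 ± 0.81 without it (adjusted p = 0.50 in edgeR). These comparisons share the ConA libraries.

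Of 17 lysosomal genes 1 fell with ConA against untreated, a share no higher than that of all genes (7 fell and 1, LAMP2, rose with the block; median −0.41). It was the endopeptidase LGMN (−1.28 ± 0.33, adjusted p = 0.020 in edgeR). With ConA+ALA against ALA 2 of 17 fell (15 with the block; median −0.97), LGMN by 1.26 ± 0.33 and the cholesterol carrier NPC2 by 0.97 ± 0.23. No gene of the 5 lists passed for ALA against untreated in edgeR with or without the block.

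Reads in introns, which come mostly from unspliced RNA, were counted separately for the same genes. For ConA against untreated, LYZ fell in intron reads as well (−3.09 ± 0.74, adjusted p = 0.025 in edgeR), where 3.14% of the genes tested on intron reads fell; it was the 1 gene of the 8 to pass. CSF1R changed by −1.82 ± 0.52 in intron reads (adjusted p = 0.053 in edgeR) and TLR2 by −1.05 ± 0.47 (adjusted p = 0.22 in edgeR). FCER1G and TLR4 stayed near 0 in both kinds of read, at 0.28 ± 0.70 and 0.38 ± 0.53 in intron reads. For ConA+ALA against ConA, FCGR1A changed by 1.81 ± 0.86 in intron reads (adjusted p = 1.0 in edgeR), on only 19 to 54 intron reads a library with ConA+ALA and 1 to 25 with ConA. AIF1 held 0 to 40 intron reads a library, too few to read its intron value.

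**Figure D4:**
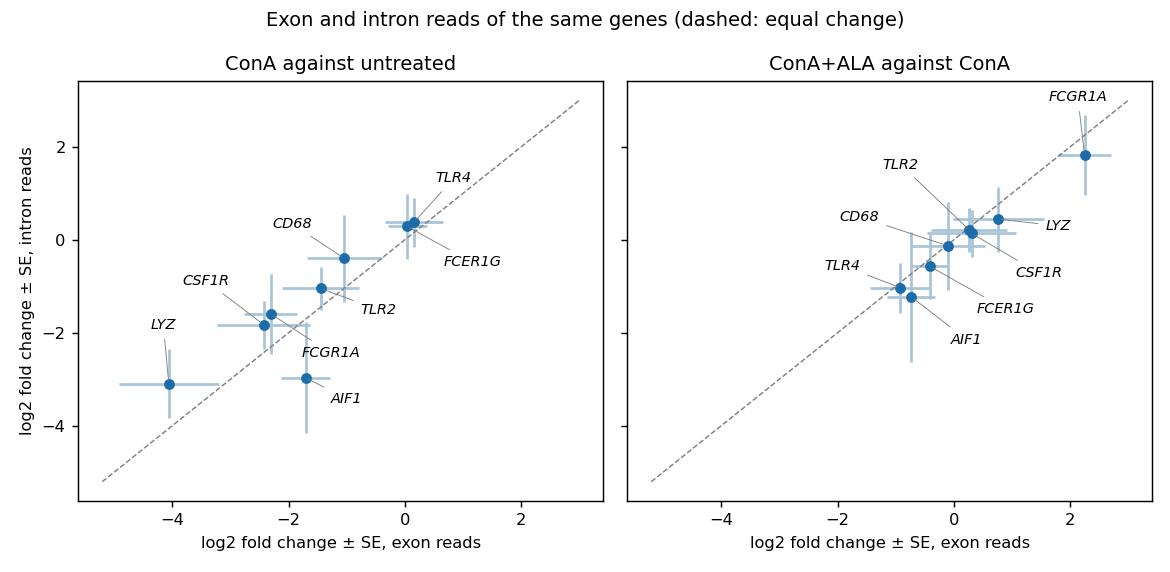
Log2 fold change with SE in exon reads (x axis) and in intron reads (y axis) for the 8 genes, for ConA against untreated and for ConA+ALA against ConA; the dashed line marks equal change. LYZ lies at −4.06 and −3.09 in the ConA panel, and FCGR1A at 2.24 and 1.81 in the ConA+ALA panel.

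The 8 genes differed in what their variation went with. ConA took 73.2% of the sum of squares of log2 CPM over the 12 libraries for LYZ, 72.7% for AIF1 and 60.6% for CSF1R, against a median of 25.5% over all genes. The number took 47.3% for TLR4, 47.1% for CD68, 40.3% for TLR2 and 34.4% for CSF1R (median of all genes 33.2%). FCGR1A was split between ConA at 37.7% and ALA at 34.6%, where the median gene had 1.77% with ALA. For FCER1G 77.9% went with none of these terms (median of all genes 16.4%).

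**Figure D5:**
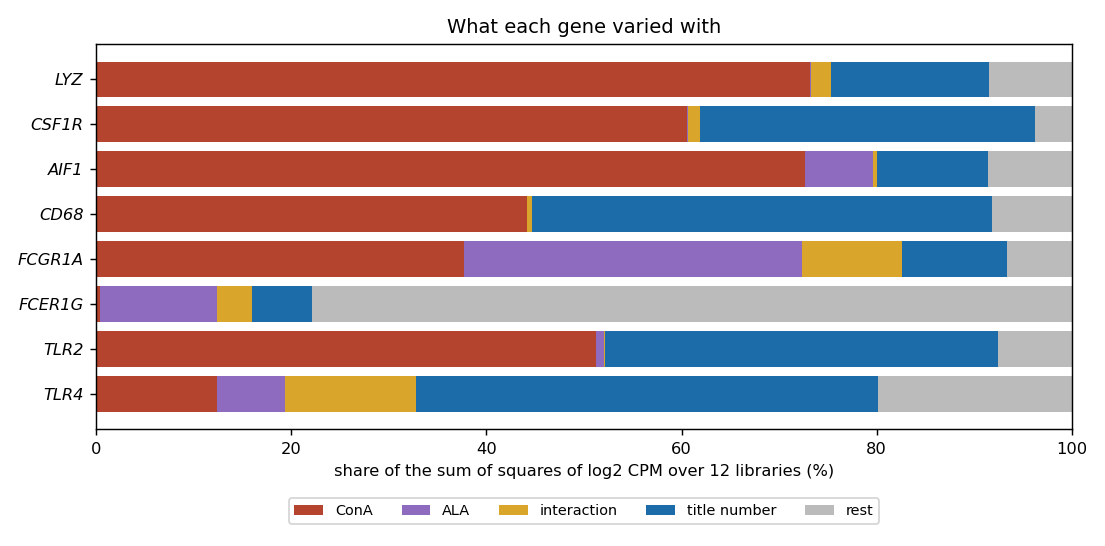
Share of the sum of squares of log2 CPM over 12 libraries that goes with ConA, ALA, their interaction, the title number and the rest, for each of the 8 genes (x axis, percent). FCGR1A has 34.6% with ALA, while the other genes have at most 12%.

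Levels of CSF1R, TLR2 and CD68 moved together over the 12 libraries, with Pearson correlations of 0.97 (CSF1R and TLR2), 0.93 (CSF1R and CD68) and 0.92 (CD68 and TLR2) among 28 pairs. FCGR1A had correlations of −0.18 with FCER1G, −0.09 with TLR4 and at most 0.48 (TLR2), and FCER1G had 0.15 with LYZ, 0.28 with CSF1R and at most 0.67 (TLR4). These values describe 12 libraries that share treatments and numbers and are not independent. Likeness to the 8 was ranked over 9122 other named genes averaging at least 50 counts. Those most like the mean standardised level of the 8 were SLC49A3 (r = 0.98), AGTRAP (0.97), OGFRL1 (0.97), TGFBI (0.96) and MPP1 (0.96) over the 12 libraries. TGFBI averaged 21.2 CPM with ConA+ALA, 22.1 CPM with ConA, 408 CPM with ALA and 202 CPM in untreated cells.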

How the data were processed

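PBMC RNA of 12 libraries (4 groups of 3) was analysed from tables of 29822 genes. Per the file headers these hold exon, unique exon, intron and junction read counts and TPM. Total exon counts, deposited by the authors without normalization, were tested; the deposited TPM, scaled for gene length and depth, were used to compare levels between genes. The submitters' processing notes name CanFam3.1 and bcl2fastq; aligner, counter and strand setting: not given in the sources used here. Each library held 13390692 to 21517099 exon reads.

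Groups and numbers came from the titles. Counts were fitted with edgeR 4.0.16 in R 4.3.3 (TMM, filterByExpr, robust quasi-likelihood F-test) on all 12 libraries with 4 group means. P-values were Benjamini-Hochberg adjusted over 13358 genes, with a threshold of 0.05. SE is the log2 change over the square root of F. CPM use TMM-scaled library sizes. The fit was tested on simulated counts.

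Whether numbers pair libraries was checked from deviations from group means: 18 pairs with the same number correlated at 0.376 to 0.748, above 0.1, and every library (12 of 12) was most correlated with one of its own number. A fit with the number as a replicate block was therefore an alternative, given beside each result whose call it changes; the biological coefficient of variation was 0.422 without it and 0.217 with it.

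Other alternatives were DESeq2 1.42.0, its size factors, unique exon reads only, dropping mitochondrial and hemoglobin genes, no filter on low counts or a filter at a mean of 50, compared groups only, and each library or number left out. After seeing the data, total gene reads, intron reads and the block with a number left out were added. Genes named were the 9 symbols, the 3 smallest p-values of each list and the 5 most like the members' mean level (log2 CPM, prior count 2); LY96, the TPM ratios and other list genes counted in groups of 5 or fewer were chosen after their values were seen. Members and lists were chosen with earlier results of these data known. Figures used Python 3.11.15 and matplotlib 3.10.9. Some marker and list results are not reported here.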

Additional observations from a re-analysis of the deposited data

How the results depend on the processing

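Each group has 3 libraries, and the titles do not say what a number is. Libraries numbered 1 differ from the rest in mitochondrial and junction share, so many calls turn on how the number is treated. LYZ rests on as few as 30 exon reads, in ConA+ALA library 3, and intron reads of AIF1 and FCGR1A are too few to bound a change. The causes of the differences below were not tested.

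The replicate block changed no call of the 8 genes other than those given with it in the results. For ConA against untreated, 6 of the 8 members and 5676 genes passed with the replicate block, 1614 genes with the compared groups only, and 1 member and 1117 genes on intron reads. As libraries or numbers were left out, members passing ranged from 0 to 5 and genes from 55 to 2467; the block without numbers 1, 2 and 3 gave 5, 5 and 6 members and 3627, 3794 and 5418 genes. For ConA+ALA against ALA, members passing were 6 with the block, 3 with DESeq2, 2 with a mean of at least 50 counts and 0 on intron reads. Genes were 4022 with the block, 1830 with DESeq2 and 232 on intron reads; left-out fits gave 0 to 2 members and 0 to 1184 genes, and the block without numbers 1, 2 and 3 gave 5, 5 and 6 members and 2096, 2157 and 3817 genes.

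For ALA against untreated, genes passing were 6 with the block, 4 with DESeq2 and 18 with the block without number 3. For ConA+ALA against ConA, 1 member passed with the block and 1 with DESeq2, while genes were 74 with the block, 49 with DESeq2, 2 with no filter, 3 with the compared groups only, 2 on total gene reads, 2 on intron reads and 0 to 6 in left-out fits. The block without numbers 1, 2 and 3 gave 2, 1 and 1 members and 23, 7 and 97 genes. For the interaction, 4 genes passed with DESeq2, 2 on intron reads, 14 with the block without number 3 and 0 to 1 in left-out fits.

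The values that changed direction had not passed without the block, and none passed where it had turned. LYZ for ConA+ALA against ConA passed with the block without number 3, in the same direction as without the block. With the block, ConA against untreated gave −0.00357 for FCER1G and −0.0426 for TLR4; without number 1 these were −0.276 and −0.412, and FCER1G was −0.0435 without number 2. Left-out fits ranged from −0.257 to 0.448 for FCER1G and −0.439 to 0.473 for TLR4. For ConA+ALA against ALA, FCER1G was 0.203 on intron reads and −0.50 to 0.0888 in left-out fits. For ALA against untreated, CSF1R was −0.311 with the block, −0.0329 on total gene reads and −0.293 on intron reads; the block gave −0.717 without number 1 and −0.319 without number 2, and left-out fits −1.27 to 0.576. There the block without number 1 gave −0.309 for CD68, −0.338 for TLR2 and −0.356 for TLR4, and without number 3 gave 0.378 for FCER1G. Left-out ranges were −0.422 to 0.939 for CD68, −0.625 to 0.853 for TLR2, −0.384 to 0.785 for TLR4, −1.27 to 0.303 for LYZ and −0.711 to 0.397 for FCER1G. For ConA+ALA against ConA, LYZ was −0.198 with the block without number 2, and left-out ranges were −0.529 to 1.01 for CSF1R, −0.435 to 0.882 for TLR2 and −0.732 to 0.598 for CD68. For the interaction, TLR2 was 0.0842 with the block, and 0.538 without number 1, where CD68 was 0.211 and FCER1G 0.126. Left-out ranges were −0.544 to 1.57 for CSF1R, −0.924 to 0.89 for TLR2, −0.57 to 0.227 for AIF1, −1.26 to 0.322 for CD68 and −0.795 to 0.0958 for FCER1G.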
